A study of Saccharomyces cerevisiae with 24 samples.

Results

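Loss of *CDK8* in budding yeast whose RNA polymerase II (RNAPII) keeps 11 repeats of its C-terminal domain (CTD) was examined by setting the double mutant *rpb1-CTD11 cdk8Δ* (2 arrays, a and b) against the single mutant *rpb1-CTD11* (2 arrays, a and b). These 4 of the 24 arrays of the series were chosen by their titles alone, and all 6388 gene probes were compared, of which 5326 have a gene name. Every strain is labelled as BY4742, a haploid of mating type alpha, and was grown to mid-log phase in synthetic complete medium with glucose. In both mutants a stop codon and a *NAT* marker at *RPB1* end the protein after 11 repeats, and in the double mutant the open reading frame of *CDK8* was also replaced by a marker. The design text of the series gives 2 independent cultures per mutant, and which of 2 sets of strain backgrounds described in the methods was used for the arrays is not given there. The groups used beside them are *rpb1-CTD12 cdk8Δ* and *rpb1-CTD12* (2 arrays each), which keep 12 repeats, wild type 330 rpm (2 arrays), named for its shaking speed although the protocol gives 230 rpm for all, and wild type (8 arrays). The fit and the plot over all groups also take in *rpb1-CTD13*, *rpb1-CTD20* and *RPB1-CTDWT*, which has the CTD at full length, with 2 arrays each. On each array total RNA of 1 strain was labelled in one dye and a common wild type reference in the other, and each array value below is the log2 ratio of sample over reference.

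The CTD is a tail of heptapeptide repeats on Rpb1, the largest RNAPII subunit, and proteins of transcription and of RNA processing bind to it, Mediator among them. Cdk8, also called Srb10 or Ssn3, is the kinase of a Mediator module that it forms with cyclin C (Ssn8), Med12 (Srb8) and Med13 (Ssn2). The module acts mostly as a repressor in cells growing on glucose, and Cdk8 is known to phosphorylate gene-specific activators such as Gcn4 and Msn2 as well as the CTD. Loss of the kinase is a classical suppressor of CTD truncation, which is why the double mutant was profiled.

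*SSN3*, the array's name for *CDK8* (chromosome XVI), read -1.60 and -1.75 on the *rpb1-CTD11 cdk8Δ* arrays and -0.36 and -0.11 on the *rpb1-CTD11* arrays. The groups did not overlap, and since the probe was not above background on either double mutant array the deletion is given as a bound, at least 2.48-fold lower (adjusted p = 1e-11). The other genes of the module were not called, with log2 differences of 0.08 for *SSN8* (adjusted p = 0.22), -0.10 for *SSN2* (adjusted p = 0.23) and -0.17 for *SRB8* (adjusted p = 0.025). *RPO21*, the gene of Rpb1, read -1.84 and -1.62 in *rpb1-CTD11 cdk8Δ* and -1.11 and -1.09 in *rpb1-CTD11*, below the reference in both mutants, with a difference of -0.63 (SE 0.18, adjusted p = 0.0069) that is under the fold threshold and loses its p when any 1 of the 4 arrays is left out. Of the 21 other Mediator subunits measured, 4 were lower by the adjusted p, near the share of 18.9% over all probes, and none passed the fold. *SRB4*, among the 4, was at -0.31 (adjusted p = 0.0001). With a loess curve through the spiked-in control RNAs none of the 21 passed the adjusted p. Their median log2 difference was then 0.13, against -0.08 with the curve through all genes. The median sample signal was 314 and 785 on the *rpb1-CTD11 cdk8Δ* arrays and 381 and 716 on the *rpb1-CTD11* arrays, over a median local background of 45 and 57 for the double mutant and 44 and 63 for the single mutant, and 96.4 to 97.9% of probes were above background. As in every group of 2, the a array carried the sample in Cy3 and the b array in Cy5, so the fit held a dye term.

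Against *rpb1-CTD11*, *rpb1-CTD11 cdk8Δ* had 204 probes higher and 146 lower, at an adjusted p under 0.01 from limma (Benjamini-Hochberg over all 6388 probes) and a fold change over 1.7. These are 3.19% and 2.29% of the probes, and these shares are the background for each list below. Rises, falls and responses to loss of *CDK8* below name this contrast, whose cause was not tested. By the adjusted p alone, 1257 probes (19.7%) were higher and 1209 (18.9%) lower, so that most detectable differences were small, and the median absolute log2 difference over all probes was 0.16. All 204 and all 146 had the same sign in the a pair and in the b pair of arrays, and 168 and 111 passed the fold in each pair taken alone. The calls were made on these same 4 arrays, which by itself favours such agreement. Over all 6388 probes, 5115 had the same sign in both pairs, and 279 also passed the fold in each. Across probes the a-pair and b-pair differences had a correlation of 0.890, a description of these 4 arrays, since probes are not independent replicates. The smallest called log2 difference was 0.77, at the fold threshold. The split between higher and lower depended on the scaling. A loess curve through the spiked-in control RNAs alone put the median difference of all probes at 0.20, against 0.01 with the curve through all genes, and gave 248 higher and 40 lower, 86.1% higher against 58.3%.

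**Figure D1:**
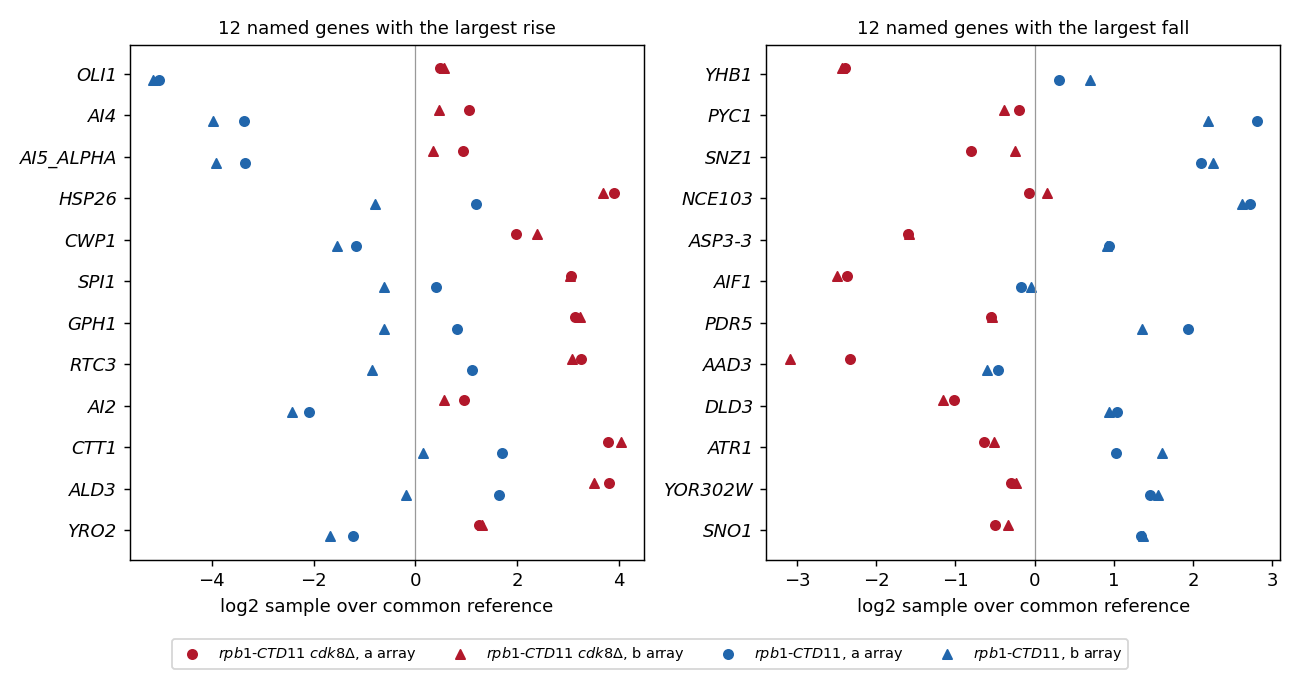
Log2 ratio of sample over common reference (horizontal axes) of the 12 named genes with the largest rise (left panel) and the 12 with the largest fall (right panel) after loss of *CDK8* at 11 repeats. Red stands for *rpb1-CTD11 cdk8Δ* and blue for *rpb1-CTD11*, circles for a arrays and triangles for b arrays, and for each gene both red points lie on the same side of both blue points. The genes were chosen for their difference on these same arrays, which by itself favours this separation.

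The general stress program, which the activators Msn2 and Msn4 switch on when growth slows or conditions worsen, rose broadly. Of its 23 measured members, 18 were called higher and none lower, with a median log2 difference of 1.73 and a range of 0.03 to 3.60. *HSP26*, a small heat shock protein, read 3.90 and 3.69 in *rpb1-CTD11 cdk8Δ* and 1.18 and -0.79 in *rpb1-CTD11*, a difference of 3.60 (SE 0.38, adjusted p = 3.2e-07). *CTT1*, the cytosolic catalase, read 3.79 and 4.03 in *rpb1-CTD11 cdk8Δ* and 1.7 and 0.14 in *rpb1-CTD11*, a difference of 2.99 (SE 0.30, adjusted p = 1.7e-07). In both genes the double mutant arrays were close to each other and far above the reference, while the single mutant arrays lay apart from each other and below both. *SPI1*, a cell wall protein of stationary cells, read 3.05 and 3.03 in *rpb1-CTD11 cdk8Δ* and 0.41 and -0.61 in *rpb1-CTD11*, a difference of 3.14 (adjusted p = 1.4e-09). *ALD3*, an aldehyde dehydrogenase, read 3.80 and 3.50 in *rpb1-CTD11 cdk8Δ* and 1.65 and -0.19 in *rpb1-CTD11*, a difference of 2.92 (adjusted p = 2.5e-07). The groups were apart in each of these genes, which are among those chosen for the largest rise on these arrays. *RTC3*, at 3.25 and 3.07 in *rpb1-CTD11 cdk8Δ* and 1.10 and -0.85 in *rpb1-CTD11*, rose by 3.03 (adjusted p = 1.1e-06), *YGP1*, a secreted glycoprotein of starved cells, by 2.22 and *DDR2* by 2.20. *HSP12*, a membrane-protecting protein, was already high in the single mutant, at 3.86 and 4.17 in *rpb1-CTD11 cdk8Δ* and 3.04 and 1.89 in *rpb1-CTD11*, and rose by 1.55 (adjusted p = 0.0005). The gene of the activator itself, *MSN4*, read 1.5 and 1.49 in *rpb1-CTD11 cdk8Δ* and -0.37 and -0.48 in *rpb1-CTD11*, a rise of 1.91 (SE 0.092, adjusted p = 7.9e-12) with little spread in either group.

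The single mutant arrays differed from each other over the whole stress list. Its median was 2.43 and 2.34 on the *rpb1-CTD11 cdk8Δ* arrays and 0.88 and -0.09 on the *rpb1-CTD11* arrays, against -0.00 to 0.47 on the wild type arrays and 0.47 and 0.37 in wild type 330 rpm. Both double mutant arrays lay above every array of these groups. The median log2 difference of the list was 2.15 without the *rpb1-CTD11* a array and 1.17 without its b array. Single genes moved further, *HSP26* to 4.51 without the a array and 2.69 without the b array, *CTT1* to 3.73 and 2.25, the glycogen gene *GPH1* to 3.83 and 2.35, *ALD3* to 3.7 and 2.14 and *DDR2* to 2.85 and 1.55. The storage genes *PGM2* and *TSL1* moved to 2.77 and 2.02 without the a array and to 1.13 and 0.75 without the b array, where *TSL1* was under the fold. *HSP12* moved to 2.14 without the a array and to 0.96 without the b array, and it did not pass the adjusted p without that b array or without the *rpb1-CTD11 cdk8Δ* b array. Each array averages over a whole culture, so a change in the share of cells in a stressed state and a change of RNA in every cell cannot be told apart.

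Genes of the storage carbohydrates trehalose and glycogen rose as well. Of 17 measured, 9 were called higher and none lower, 15 were higher by the adjusted p, and the median log2 difference was 0.90. *GPH1*, glycogen phosphorylase, read 3.12 and 3.24 in *rpb1-CTD11 cdk8Δ* and 0.81 and -0.62 in *rpb1-CTD11*, a difference of 3.09 (SE 0.28, adjusted p = 4.4e-08). *PGM2*, phosphoglucomutase, rose by 1.95, *GSY1*, a glycogen synthase, by 1.64, *TPS2*, trehalose phosphatase, by 1.52, and *TSL1*, a subunit of the same trehalose complex, by 1.39. Genes of synthesis and of breakdown were thus higher together, and *GPD1*, which makes the osmolyte glycerol from glycolytic intermediates, rose by 1.73 (adjusted p = 3.4e-08).

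**Figure D2:**
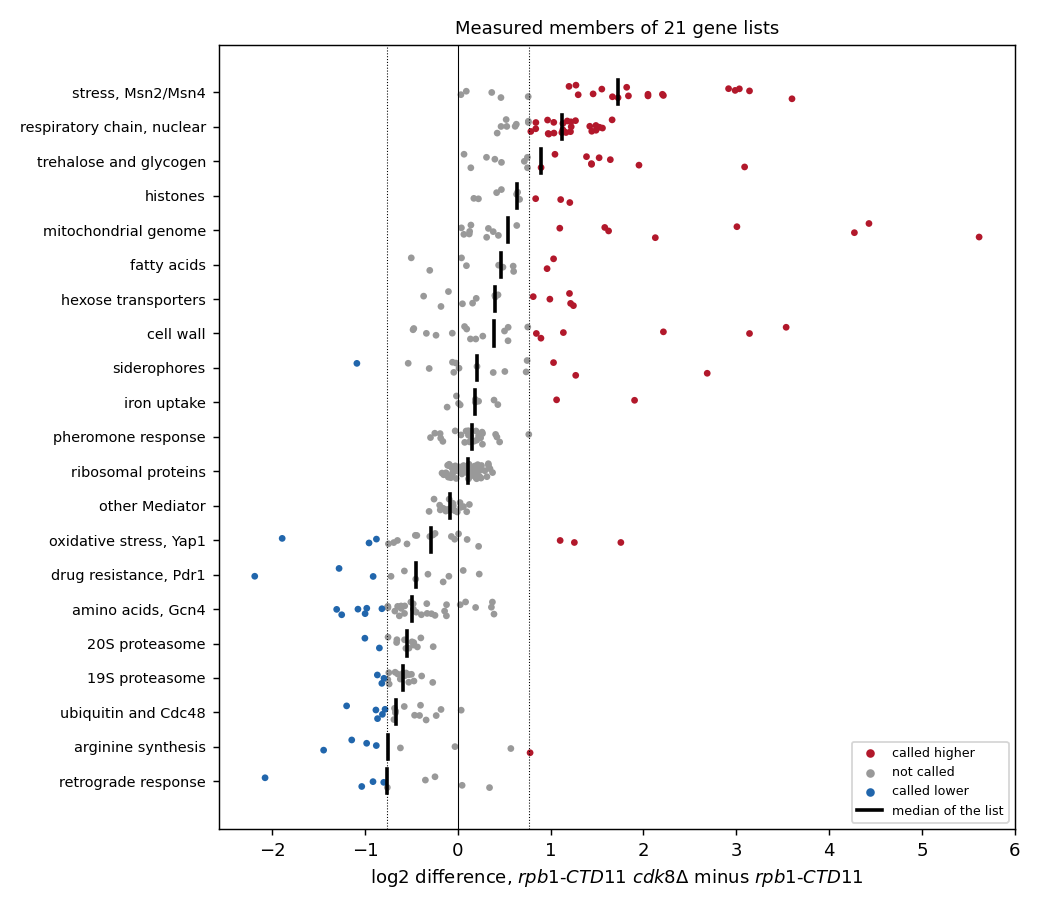
Log2 difference of *rpb1-CTD11 cdk8Δ* minus *rpb1-CTD11* (horizontal axis) for each measured member of 21 gene lists (vertical axis). Red points were called higher, blue points lower and grey points neither, black bars are list medians and dotted lines mark the fold threshold. The stress list has its median at 1.73, the retrograde list at -0.76.

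At the cell surface, 6 of 20 cell wall genes were called higher and none lower (median log2 difference 0.39). *CWP1*, a cell wall mannoprotein linked to glucan, read 1.97 and 2.39 in *rpb1-CTD11 cdk8Δ* and -1.18 and -1.54 in *rpb1-CTD11*, a difference of 3.54 (SE 0.15, adjusted p = 2.2e-12). It lay below the reference in the single mutant and above it in the double mutant. *YRO2*, a membrane protein of the plasma membrane and of mitochondria related to Hsp30, read 1.26 and 1.31 in *rpb1-CTD11 cdk8Δ* and -1.23 and -1.68 in *rpb1-CTD11*, a difference of 2.73 (adjusted p = 1.9e-09). Its relative *MRH1* had a difference of 0.70 (adjusted p = 3.8e-09), under the fold threshold. Of 14 hexose transporters, 5 were called higher and none lower (median 0.40). *HXT13* rose by 1.25, *HXT1*, the low-affinity transporter of high glucose, by 1.22, *HXT6*, a high-affinity transporter, by 1.20 and *HXT8* by 0.99, so transporters of high and of low glucose rose side by side. *HXT6* and *HXT13* have close copies in the genome, and the array may not separate them.

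Iron uptake genes rose in part. *FRE1*, the main surface iron and copper reductase, read 0.45 and 0.12 in *rpb1-CTD11 cdk8Δ* and -1.57 and -1.66 in *rpb1-CTD11*, a difference of 1.90 (SE 0.12, adjusted p = 2.9e-10), and *FET3*, the multicopper oxidase of high-affinity uptake, rose by 1.06 (adjusted p = 5.4e-05). These were the 2 called among 11 genes of surface uptake, whose median was 0.19. Among 15 siderophore genes 3 were called higher and 1 lower (median 0.21). *FIT2*, a cell wall protein that retains iron siderophores, read 1.19 and 1.52 in *rpb1-CTD11 cdk8Δ* and -1.36 and -1.29 in *rpb1-CTD11*, a difference of 2.69 (SE 0.20, adjusted p = 2.7e-09). *FIT3* rose by 1.27 and the siderophore transporter *ARN1* by 1.03, whereas *ISU1*, the scaffold on which iron-sulfur clusters are assembled, fell by 1.09 (adjusted p = 1.7e-08). *FIT2* is also 1 of the genes that differ between the wild types, higher by 0.96 in wild type 330 rpm. With the spiked-in curve *ISU1* did not pass the adjusted p, and *FIT3*, at 0.59, did not when *rpb1-CTD11 cdk8Δ* was set against wild type 330 rpm and *rpb1-CTD11* against wild type.

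The 3 largest rises were in transcripts of the mitochondrial genome. *OLI1*, a subunit of the ATP synthase encoded there, read 0.47 and 0.56 in *rpb1-CTD11 cdk8Δ* and -5.04 and -5.15 in *rpb1-CTD11*, a difference of 5.62 (SE 0.22, adjusted p = 6e-13). The *rpb1-CTD12* arrays, at -4.98 and -5.23, were as low as those of *rpb1-CTD11*, and the wild type arrays read -0.06 to 0.73. *AI4*, an intron of *COX1* with its own reading frame, read 1.06 and 0.45 in *rpb1-CTD11 cdk8Δ* and -3.37 and -3.98 in *rpb1-CTD11*, a difference of 4.43 (adjusted p = 6e-13). Both genes, chosen for the size of their rise, thus separated the strains by a wide margin. The neighbouring *AI5_ALPHA* was not above background in *rpb1-CTD11* and was at least 18.6-fold higher in *rpb1-CTD11 cdk8Δ*, and *AI2*, *AI3*, *ATP8* and *AI1*, also not above background in *rpb1-CTD11*, were called higher. Of the 18 probes of this genome 8 were called higher and none lower, with a median log2 difference of 0.54, and 12 were not above background in at least 1 of the groups. *COX2*, above background on all 4 arrays, differed by 0.04 (adjusted p = 0.67) and *COX1* by 0.44 (adjusted p = 2.4e-05). The low mitochondrial transcripts of the *rpb1-CTD11* cultures and their intact *CDK8* cannot be told apart as the background of the differences in these 4 arrays.

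Nuclear genes of the respiratory chain and the ATP synthase moved with them. All 33 measured were higher by the adjusted p and 25 were called higher, with a median log2 difference of 1.12 and a range of 0.42 to 1.66. The median of the list was 0.78 and 0.76 on the *rpb1-CTD11 cdk8Δ* arrays and -0.20 and -0.33 on the *rpb1-CTD11* arrays, against 0.07 to 0.31 on the wild type arrays, so the double mutant lay above and the single mutant below all wild type arrays. *COX7*, a cytochrome oxidase subunit, read 0.83 and 1.23 in *rpb1-CTD11 cdk8Δ* and -0.70 and -0.36 in *rpb1-CTD11*, a difference of 1.56 (SE 0.061, adjusted p = 5e-13). The cytochrome bc1 subunits *QCR10* and *QCR6* rose by 1.49 and 1.17, and the NADH dehydrogenase *NDE1* by 1.44. *INH1*, an inhibitor of ATP hydrolysis by the synthase, read 1.56 and 1.31 in *rpb1-CTD11 cdk8Δ* and -0.90 and -1.41 in *rpb1-CTD11*, a difference of 2.59 (adjusted p = 2.3e-11). *HAP4*, the limiting subunit of the activator of respiratory genes, rose by 1.22 (adjusted p = 1.2e-07), at 1.41 and 1.44 in *rpb1-CTD11 cdk8Δ* and 0.28 and 0.14 in *rpb1-CTD11*. *SOD2*, the superoxide dismutase of mitochondria, rose by 1.10. The 65 mitochondrial ribosomal protein genes had no called member in either direction and a median of -0.04.

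Histone genes were higher in the double mutant. Of 10 measured, 9 were higher by the adjusted p and 3 called, with a median log2 difference of 0.64. *HHF1*, a gene of histone H4, read 0.88 and 1.15 in *rpb1-CTD11 cdk8Δ* and -0.35 and -0.03 in *rpb1-CTD11*, a difference of 1.21 (SE 0.075, adjusted p = 2.5e-10), and *HHT1*, its divergent neighbour for histone H3, rose by 1.11. The second H3 gene *HHT2* was at 0.64 and *HTA1* at 0.63, both under the fold threshold. Genes of the same histone are near-identical, so the array may share signal between them. Among 27 cell cycle genes the mitotic cyclin *CLB1* rose by 1.25 (SE 0.046, adjusted p = 2.6e-13), 1 other was called lower, and the median was 0.06.

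**Figure D3:**
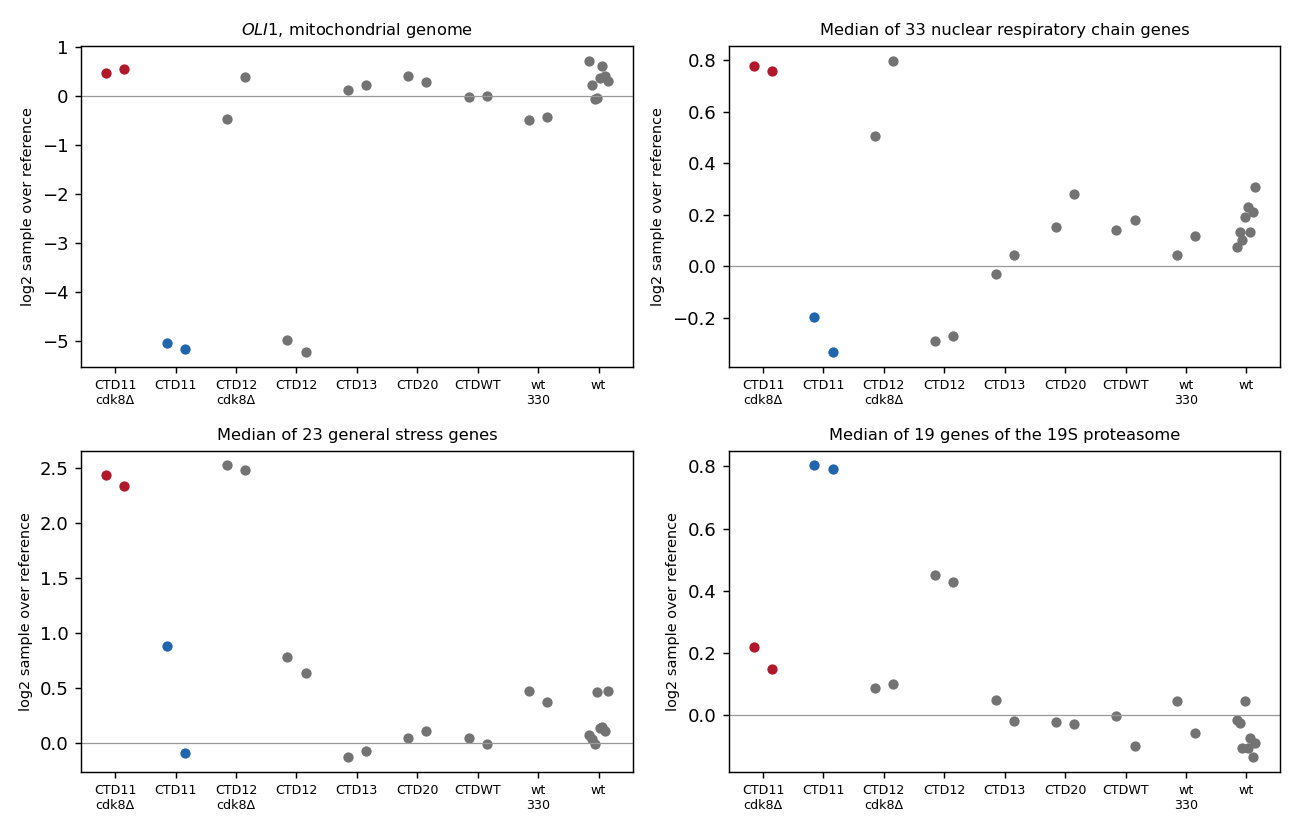
Log2 ratio of sample over common reference (vertical axes) on every array of the 9 groups (horizontal axes) for *OLI1* and for the medians of 33 nuclear respiratory genes, 23 stress genes and 19 genes of the 19S proteasome. Red is *rpb1-CTD11 cdk8Δ*, blue *rpb1-CTD11* and grey every other group. *OLI1* lies near -5 in both single mutants with 11 or 12 repeats and near 0 elsewhere.

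Genes of the proteasome, the protease that degrades ubiquitin-tagged proteins, fell together by a small amount. All 14 genes of the 20S core were lower by the adjusted p (median log2 difference -0.54, range -1.0 to -0.26) and all 19 of the 19S regulatory particle (median -0.59, range -0.87 to -0.27), but only 2 and 3 passed the fold. *PRE3*, a catalytic core subunit, read 0.15 and -0.13 in *rpb1-CTD11 cdk8Δ* and 1.11 and 0.91 in *rpb1-CTD11*, a difference of -1.0 (SE 0.040, adjusted p = 7.2e-13). *RPT1*, an ATPase of the regulatory particle, read 0.34 and 0.15 in *rpb1-CTD11 cdk8Δ* and 1.08 and 0.92 in *rpb1-CTD11*, a difference of -0.75 (adjusted p = 4.3e-09), just under the fold threshold. In both genes the single mutant stood near 1 above the reference and the double mutant near the reference. *PRE1*, another core subunit, fell by 0.84 and the deubiquitinase *RPN11* by 0.87. Of 14 assembly and associated factors, 3 were called lower and none higher (median -0.24), among them *UMP1*, the maturation factor of the core, at -0.87 and *ECM29* at -0.81. Of 17 ubiquitin and Cdc48 pathway genes, 5 were called lower and none higher and 16 were lower by the adjusted p (median -0.67). *DSK2*, which carries ubiquitinated proteins to the proteasome, read 0.02 and -0.01 in *rpb1-CTD11 cdk8Δ* and 1.25 and 1.16 in *rpb1-CTD11*, a difference of -1.20 (SE 0.071, adjusted p = 1.4e-10), and polyubiquitin *UBI4* and the shuttle factor *DDI1* fell by 0.88 and 0.86.

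These falls took the lists most of the way to the wild type level. The median of the 19S genes was 0.22 and 0.15 on the *rpb1-CTD11 cdk8Δ* arrays and 0.80 and 0.79 on the *rpb1-CTD11* arrays, and that of the 20S genes 0.16 and 0.26 in *rpb1-CTD11 cdk8Δ* and 0.72 and 0.71 in *rpb1-CTD11*. Set against the wild types, the 19S median was 0.19 for *rpb1-CTD11 cdk8Δ* minus wild type 330 rpm and 0.83 for *rpb1-CTD11* minus wild type. These contrasts share arrays with the main one and are given only side by side. *RPN4*, the gene of the activator of proteasome genes, had no such fall, at 0.43 and 0.53 in *rpb1-CTD11 cdk8Δ* and 0.33 and 0.27 in *rpb1-CTD11*, a difference of 0.18 (adjusted p = 0.13). With the curve through the spiked-in controls, no gene of the 20S, 19S or ubiquitin lists passed the adjusted p, and their medians were -0.26, -0.32 and -0.31, or -0.46, -0.52 and -0.51 relative to all probes. No assembly or associated factor passed with that curve either, and the median of that list was 0.02, or -0.17 relative to all probes.

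Genes of amino acid synthesis under the activator Gcn4 fell, 24 of 34 by the adjusted p with 3 higher, and 6 were called lower and none higher (median log2 difference -0.49). *ASN2*, asparagine synthetase, read -0.48 and -0.27 in *rpb1-CTD11 cdk8Δ* and 0.89 and 0.97 in *rpb1-CTD11*, a difference of -1.30 (SE 0.037, adjusted p = 4.1e-15). *HIS5* of histidine synthesis fell by 1.25 and *ARO1*, the pentafunctional enzyme of aromatic amino acids, by 1.00. The double mutant lay below the reference and the single mutant above it for these genes. In arginine synthesis 4 of 8 were called lower and 1 higher (median -0.75), led by *CPA1*, of carbamoyl phosphate synthetase, which fell by 1.45 (adjusted p = 8.6e-10) with its upstream reading frame *YOR302W* on the same messenger, at -1.78, and by *ARG4*, at -1.14. *LYS1*, the last enzyme of lysine synthesis, read -0.21 and -0.23 in *rpb1-CTD11 cdk8Δ* and 1.12 and 1.15 in *rpb1-CTD11*, a difference of -1.36 (SE 0.063, adjusted p = 4.7e-12), and was the only 1 of 7 lysine genes called. *GCN4* messenger itself read -0.28 and 0.06 in *rpb1-CTD11 cdk8Δ* and -0.07 and 0.47 in *rpb1-CTD11*, overlapping groups with a difference of -0.31 (adjusted p = 0.0042) that turned to 0.10 with the spiked-in curve. With that curve no Gcn4 gene passed the adjusted p (median -0.24, or -0.43 relative to all probes), and of the arginine genes 1 was called lower, with *ARG4* no longer past the adjusted p. Without the *rpb1-CTD11* a array 11 Gcn4 genes were called lower.

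*SNZ1* and *SNO1*, which share a divergent promoter and make vitamin B6, fell strongly. *SNZ1* read -0.80 and -0.24 in *rpb1-CTD11 cdk8Δ* and 2.10 and 2.25 in *rpb1-CTD11*, a difference of -2.70 (SE 0.10, adjusted p = 3.7e-13), and *SNO1* read -0.50 and -0.34 in *rpb1-CTD11 cdk8Δ* and 1.35 and 1.37 in *rpb1-CTD11*, a difference of -1.78 (adjusted p = 1.4e-09). They were the only 2 of 17 vitamin B6 and thiamine probes called. Sulfur genes were mixed, with 1 of 27 called higher (*MET3*, ATP sulfurylase, 0.85) and 2 lower (*MET22* at -1.09 and *STR2* at -0.79). In purine synthesis 2 of 11 were called lower (median -0.33). With the spiked-in curve *MET22* and *STR2* did not pass the adjusted p, and no purine gene was called.

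Genes of multidrug resistance fell, 3 called lower and none higher, while those of the oxidative stress regulator Yap1 were called 3 lower and 3 higher. *PDR5*, the main drug efflux pump, read -0.55 and -0.54 in *rpb1-CTD11 cdk8Δ* and 1.93 and 1.35 in *rpb1-CTD11*, a difference of -2.19 (SE 0.16, adjusted p = 1.5e-09). *PDR15*, its close relative, fell by 1.28 and the regulator *PDR3* by 0.91, these being the 3 of 11 Pdr1 targets called (median -0.45), while *PDR1* had -0.72 (adjusted p = 3.2e-10), under the fold threshold. *ATR1*, an export pump under Yap1 and Gcn4, read -0.64 and -0.51 in *rpb1-CTD11 cdk8Δ* and 1.03 and 1.61 in *rpb1-CTD11*, a difference of -1.89 (adjusted p = 4.2e-11). The groups stood on either side of the reference for both pumps. *ZWF1*, the entry enzyme of the pentose phosphate pathway, fell by 0.96 and the NADPH oxidoreductase *OYE2* by 0.88, and the other 3 of 20 Yap1 genes called were higher (median -0.28). *YAP1* itself had -0.75 (adjusted p = 1.6e-09), under the fold threshold. Among 20 chaperones 4 were called lower, with mitochondrial *HSP60* at -0.98, *HSP82* at -0.81 and *HSC82* at -0.77, and 2 higher. These counts were 1 lower and 4 higher without the *rpb1-CTD11* a array, and 6 lower and 1 higher without its b array. With the spiked-in curve *PDR15*, *PDR3*, *PDR1*, *ZWF1*, *OYE2*, *YAP1* and these 3 chaperones did not pass the adjusted p.

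Retrograde genes, which cells without working mitochondria use to keep up glutamate synthesis, fell beside the rise of mitochondrial transcripts. Of 9 measured, 4 were called lower and none higher (median log2 difference -0.76). *DLD3*, a D-lactate dehydrogenase and marker of this response, read -1.01 and -1.16 in *rpb1-CTD11 cdk8Δ* and 1.04 and 0.94 in *rpb1-CTD11*, a difference of -2.08 (SE 0.067, adjusted p = 3.7e-14). *CIT2*, peroxisomal citrate synthase, fell by 1.03 and *PDH1* by 0.91. In the TCA cycle 3 of 16 were called lower, aconitase *ACO1* at -1.35 and the isocitrate dehydrogenase subunits *IDH1* at -1.45 and *IDH2* at -0.96, the steps toward 2-oxoglutarate, while 9 of the others were higher by the adjusted p (list median 0.23). *IDH1* read -0.49 and -0.06 in *rpb1-CTD11 cdk8Δ* and 0.91 and 1.43 in *rpb1-CTD11*. With the spiked-in curve *ACO1*, *IDH2*, *CIT2* and *PDH1* did not pass the adjusted p. The single mutants with 11 and 12 repeats, where *OLI1* was low, were the reference of both contrasts of *CDK8* loss, so the part of the mitochondria in these falls cannot be told apart from that of *CDK8*.

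The largest fall was *YHB1*, a flavohemoglobin that detoxifies nitric oxide, at -2.39 and -2.43 in *rpb1-CTD11 cdk8Δ* and 0.31 and 0.70 in *rpb1-CTD11*, a difference of -2.92 (SE 0.15, adjusted p = 1.5e-11). *AIF1*, a mitochondrial factor of cell death, read -2.37 and -2.49 in *rpb1-CTD11 cdk8Δ* and -0.17 and -0.04 in *rpb1-CTD11*, a difference of -2.33 (adjusted p = 7.9e-14), and *AAD3*, a putative aryl alcohol dehydrogenase, read -2.32 and -3.09 in *rpb1-CTD11 cdk8Δ* and -0.46 and -0.60 in *rpb1-CTD11*, a difference of -2.18. In these 3 genes the double mutant fell well below the reference, and against wild type 330 rpm the differences of *rpb1-CTD11 cdk8Δ* were -2.22, -2.34 and -2.42. Its relatives *AAD15*, *AAD10* and *AAD6*, chosen after their values were seen, fell by 1.54, 1.16 and 0.98, and probes of this family may share signal. *AAD10* was also 0.77 lower on the log2 scale in wild type 330 rpm than in wild type, and its fall was 0.39 with *rpb1-CTD11 cdk8Δ* set against wild type 330 rpm and *rpb1-CTD11* against wild type. *ASP3-3*, secreted asparaginase, read -1.60 and -1.58 in *rpb1-CTD11 cdk8Δ* and 0.94 and 0.92 in *rpb1-CTD11*, a difference of -2.52 (SE 0.067, adjusted p = 2.1e-15). This gene has near-identical copies in tandem on chromosome XII, so the value belongs to the copies together and not to 1 of them. *HXK2*, the main hexokinase on glucose, read -1.02 and -0.73 in *rpb1-CTD11 cdk8Δ* and 0.32 and 0.58 in *rpb1-CTD11*, a difference of -1.33 (adjusted p = 1.3e-10), and was the only 1 of 16 glycolysis genes called. With the spiked-in curve *HXK2* and *AAD6* did not pass the adjusted p. The median of the glycolysis list depended on the scaling. It was -0.05 here, 0.21 with each array centred on its median and 0.59 with the spiked-in curve, or 0.39 relative to all probes.

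The wild types themselves differed at 19 probes, 7 higher and 12 lower in wild type 330 rpm than in wild type, and 16 of these 19 were also called after loss of *CDK8*, against 5.48% of all probes called in either direction. Of the 7, 5 were called higher and 1 (*PHO84*) lower, and of the 12, 6 were called lower and 4, of the mitochondrial genome, higher. *NCE103*, carbonic anhydrase, read -0.07 and 0.16 in *rpb1-CTD11 cdk8Δ* and 2.72 and 2.62 in *rpb1-CTD11*, a difference of -2.62 (adjusted p = 1.8e-10). Its mean was 0.15 in wild type 330 rpm and 1.88 in wild type, and when *rpb1-CTD11 cdk8Δ* was first set against wild type 330 rpm and *rpb1-CTD11* against wild type, its difference became -0.89. *PYC1*, pyruvate carboxylase, read -0.20 and -0.38 in *rpb1-CTD11 cdk8Δ* and 2.81 and 2.19 in *rpb1-CTD11*, a difference of -2.79 (adjusted p = 1.9e-12) that became -1.78 in that setting. *SIP5* went with them, at -1.71 and -0.67 in that setting. *HSP26* kept 2.03 of its 3.60, and *HSP30*, a stress protein of the plasma membrane, 1.93 above *rpb1-CTD11*, had -0.01 left. Over all probes, that setting gave 196 higher and 168 lower. Whether the double and single mutants were grown like the wild types set against them here is not given in the sources used here.

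**Figure D4:**
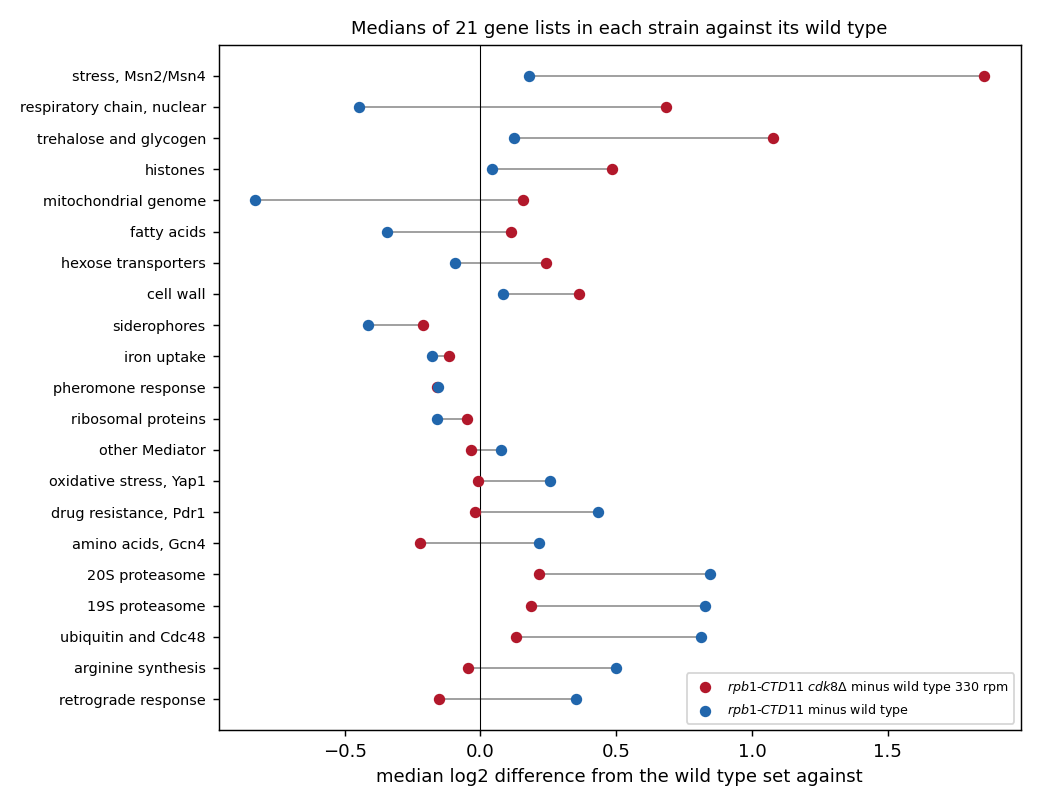
Median log2 difference of 21 gene lists (vertical axis) for *rpb1-CTD11 cdk8Δ* minus wild type 330 rpm (red) and *rpb1-CTD11* minus wild type (blue), with a line joining both values of a list. The proteasome medians lie at 0.19 and 0.22 in red and 0.83 and 0.85 in blue, and the stress median at 1.85 in red and 0.18 in blue. The contrasts share arrays with the main one, so the lengths of the lines are no new test.

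Against the same wild types, the called genes fell into unlike patterns. The 204 higher probes had a median of 0.86 for *rpb1-CTD11 cdk8Δ* minus wild type 330 rpm and -0.19 for *rpb1-CTD11* minus wild type, so the median probe lay above wild type in the double mutant and below it in the single mutant. The 146 lower probes had a median of -0.38 for *rpb1-CTD11 cdk8Δ* and 0.75 for *rpb1-CTD11*. Both sets were chosen for the gap between the mutants on these same arrays, which by itself sets these medians apart. Strain background may enter values against wild type too, given the marker *LYS2* below. *DSK2* (0.05 in the double mutant and 1.25 in the single mutant), *LYS1* (-0.03 and 1.32), *PRE3* (-0.01 and 1.15) and *ZWF1* (0.01 and 1.03) were high in the single mutant and near wild type in the double mutant. *FRE1* (-0.03 in the double mutant and -2.06 in the single mutant), *OLE1* (0.13 and -0.98), a fatty acid desaturase that rose by 1.03, and *FAS1* (0.23 and -0.86), a fatty acid synthase subunit that rose by 0.96, were low in the single mutant and near wild type in the double mutant. *CTT1* (3.43 and 0.49) and *HHT1* (1.01 and -0.05) departed from wild type in the double mutant, and *CWP1* (1.89 and -1.14) and *PDR5* (-1.11 and 1.18) stood on opposite sides of wild type in the mutants. *SAG1* (-1.20 and -2.35), the alpha-agglutinin of mating, rose by 1.11 (adjusted p = 3.3e-05) but was below wild type in both.

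Other groups changed little with the curve through all genes. Of 4 alpha-specific genes, which mark the mating type of these strains, 1 was called higher and 3 were higher by the adjusted p (median log2 difference 0.33), with *STE3*, the receptor for a-factor, at 0.41 (adjusted p = 0.00082) and *MF(ALPHA)2* at 0.23 (adjusted p = 0.36). None of 7 genes specific to the opposite mating type and none of 26 pheromone response genes was called. *INO1*, of inositol synthesis, read -0.21 and -0.03 in *rpb1-CTD11 cdk8Δ* and -0.63 and -0.77 in *rpb1-CTD11*, groups that did not overlap, with a difference of 0.58 (SE 0.11, adjusted p = 0.00031) under the fold threshold. None of 4 GMP synthesis genes passed the adjusted p, with *IMD2* at 0.14 (adjusted p = 0.15) and *GUA1* at 0.15 (adjusted p = 0.14), and *IMD2* stayed below wild type in both mutants, at -0.91 in *rpb1-CTD11 cdk8Δ* and -1.25 in *rpb1-CTD11*. In cytosolic ribosomal protein genes none of 67 was called (median 0.12), and none of 46 ribosome biogenesis genes (median 0.13). Without the *rpb1-CTD11* a array these medians were -0.01 and -0.09, and without its b array 0.20 and 0.33, so the direction of both rests on a single array. Scaling moved the ribosomal protein median too, to 0.35 with each array centred on its median and 0.73 with the spiked-in curve. Relative to all probes the latter was 0.53. By the adjusted p 8 of the 67 were higher, against 23 with that centring and none with that curve. The biogenesis median was 0.10 with that centring and 0.38 with that curve. The regulator genes *STE12* (0.18, adjusted p = 0.06), *UME6* (-0.03, adjusted p = 0.66) and *MET31* (0.05, adjusted p = 0.52) did not pass the test, nor was any of 20 early meiotic genes under Ume6 called.

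The response recurred at 12 repeats, in arrays not shared with these 4. As at 11 repeats, *OLI1* was low in the single mutant, and *MET17* was also low in *rpb1-CTD12*. The part of these strain differences in the recurrence was not tested. Of the 204 probes higher at 11 repeats, 202 had the same sign for *rpb1-CTD12 cdk8Δ* minus *rpb1-CTD12*, 194 were past the adjusted p there, and 153 were called higher, 75.0% of the 204 and 86.9% of the 176 called higher at 12. Of the 146 lower probes, 145 had the same sign, 136 were past the adjusted p, and 47 were called lower, 32.2% of the 146 and 52.2% of the 90 called lower at 12. Over all 6388 probes 78.9% had the same sign at both lengths. At 12 repeats 176 of the 6388 were called higher and 90 lower, and 1117 were higher and 950 lower by the adjusted p. The medians were smaller at 12 repeats, 1.21 at 11 and 1.10 at 12 for the higher probes and -0.98 at 11 and -0.67 at 12 for the lower, but the probes were chosen for their size at 11, which by itself makes the other value tend to be smaller. Among lists, the stress median was 1.73 at 11 repeats and 1.69 at 12, the respiratory median 1.12 at 11 and 0.87 at 12, the 20S proteasome median -0.54 at 11 and -0.29 at 12 and the ubiquitin median -0.67 at 11 and -0.23 at 12.

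Tested directly, the response differed between 11 and 12 repeats at 20 probes (0.313%), 8 with a more positive and 12 with a more negative difference at 11. By the adjusted p alone 146 of the 6388 probes passed this test, 41 more positive and 105 more negative at 11. *CWP1* rose by 3.54 at 11 repeats and 2.00 at 12 (difference of the responses 1.53), *FIT2* by 2.69 at 11 and 1.15 at 12 (1.54), and *FIT3* by 1.27 at 11 with -0.02 at 12 (1.29). *TCB2*, a tether of the endoplasmic reticulum to the plasma membrane, had 1.12 at 11 repeats and -0.07 at 12 (1.18). *ASP3-3* had -2.52 at 11 repeats and -0.41 at 12 (-2.12), *YHB1* -2.92 at 11 and -1.77 at 12 (-1.14), *SNZ1* -2.70 at 11 and -1.72 at 12 (-0.98), and the drug exporter *QDR3* -1.0 at 11 and -0.02 at 12 (-0.98). The phosphate transporter *PHO84* fell at both lengths, by 1.01 at 11 and by 2.86 at 12 (difference of the responses 1.85), on *rpb1-CTD11 cdk8Δ* arrays that read -3.00 and -2.84 and *rpb1-CTD11* arrays that read -2.47 and -1.35. Its fall at 11 repeats did not pass the adjusted p without the *rpb1-CTD11* b array or the *rpb1-CTD11 cdk8Δ* b array. *PHO84* is also among the genes that differ between the wild types. No proteasome, stress, histone or mitochondrial genome gene was among the 20, though 5 of 14 genes of the 20S core and 6 of 19 of the 19S particle passed the adjusted p of this test, each with the larger fall at 11. The count fell to 5 when only the 4 groups with 11 or 12 repeats were fitted and to 9 without the dye term, and was 45 without the *rpb1-CTD12 cdk8Δ* b array.

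**Figure D5:**
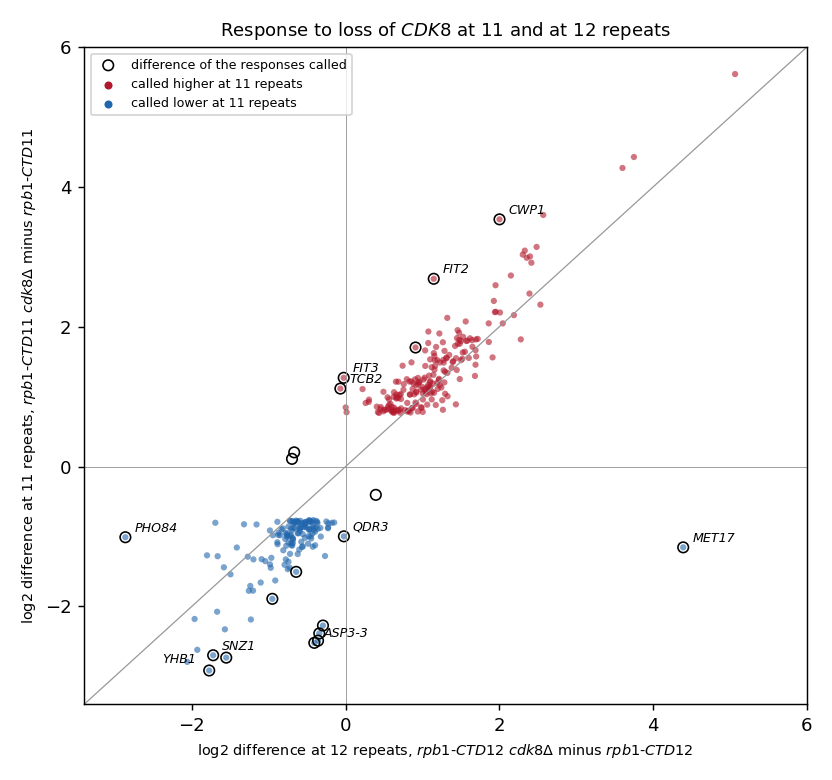
Log2 difference after loss of *CDK8* at 12 repeats (horizontal axis) and at 11 repeats (vertical axis) for the probes called at 11, red higher and blue lower, with circles around the 20 probes whose responses differed. The diagonal marks equal responses, and *MET17* stands alone with -1.16 at 11 and 4.39 at 12.

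The widest difference of the responses, -5.55, was that of *MET17*, a methionine synthesis gene that is also a marker of strain backgrounds, and it arose at 12 repeats. *MET17* read -0.24 and 0.06 in *rpb1-CTD11 cdk8Δ* and 0.83 and 1.31 in *rpb1-CTD11* (difference -1.16, adjusted p = 1.5e-08, not past the adjusted p with the spiked-in curve), while the *rpb1-CTD12* arrays read -4.68 and -4.72, so the strains with 12 repeats differ in this marker. Of the other markers, *LYS2* read 2.70 and 2.38 in *rpb1-CTD11 cdk8Δ* and 2.79 and 3.13 in *rpb1-CTD11*, high over the reference in both (difference -0.42, adjusted p = 0.035). Both mutants thus stood apart from the common wild type reference at this marker, although every strain is labelled as BY4742. Values against wild type may therefore include strain background, which was not tested. *HIS3* read -0.71 and -0.41 in *rpb1-CTD11 cdk8Δ* and -0.11 and 0.48 in *rpb1-CTD11* (difference -0.75, adjusted p = 8.4e-08, likewise lost with that curve). *LEU2* (-0.13), *URA3* (0.05), *CAN1* (-0.26) and *LYP1* (-0.18) differed by little. Of the 7 markers, 3 were lower by the adjusted p in *rpb1-CTD11 cdk8Δ* than in *rpb1-CTD11*, and 1, *MET17*, was called. Whether these strains share a background was not tested. No nuclear chromosome was shifted as a whole, with medians of -0.06 (chromosome I) to 0.03 (chromosome XII).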

How the data were processed

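Total RNA of each strain and a reference from 1 wild type culture were hybridized together on dual-channel arrays. The scanner files, as deposited, hold for each spot a mean intensity and a local background intensity, read by the authors with an Agilent scanner and Imagene and not normalized. The authors' series table, as deposited, gives log2 ratios per spot after print-tip loess (span 0.4) on signals without background subtraction, corrected for dye bias, the curve leaving out spots above 32768. The submitters' processing notes name limma 2.12.0. The authors' table of log2 ratios and adjusted p-values of their own comparisons was not used. The direction of each ratio follows the dyes in the sample labels, which the design text gives in the opposite order.

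Here intensities were background-corrected by normexp (offset 50) and normalized within each array by global loess (span 0.3, control and empty spots at weight 0), and duplicate spots were averaged. A single limma model (version 3.58.1, R 4.3.3) took in all 24 arrays, with group means and dye orientation as terms, so the spread was estimated from every group. The limma test of *rpb1-CTD11 cdk8Δ* minus *rpb1-CTD11* was adjusted by Benjamini-Hochberg over 6388 probes. Calls needed an adjusted p below 0.01 together with a fold change over 1.7, and SE is that of the fit. The background limit on an array was percentile 99 of its empty spots. Where a probe passed it on no array of a group, a bound is given, from the mean of the other group against, per array, the higher of the dim probe's signal and the lowest signal above background. All 5326 named probes matched a RefSeq gene, and 1062 probes have no name. The fit was also run on data simulated from the model itself, which cannot show whether the model suits these arrays. With 2 arrays per strain, the precision is limited by their number.

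The letters a and b mark the dye orientation in every group. The a minus b differences of different groups correlated at 0.621 to 0.927 over 28 pairs of groups (double with single mutant 0.745), so the dye term is also the replicate block. Named genes are the 12 with the largest rise and the 12 with the largest fall that moved the same way in both pairs, the Cdk8 module, genes the paper names, strain markers, up to 4 members per list by lowest p, and the genes whose response differs most between 11 and 12 repeats. *TMC1*, which this rule also names, was not analysed here. *AI1*, *AI3*, *ATP8*, *COX1*, *COX2*, *HSP12*, *DDR2*, *MSN4*, *TSL1*, *PGM2*, *GSY1*, *INH1*, *SIP5*, *CIT2*, *HSP30*, *PTR2*, *PRM5*, *ZRT1*, *YHR138C* and the further *AAD* genes were named after their values were seen. The members and the 53 gene lists were chosen with earlier results of these data known. Lists are described by counts and medians, without a test. Promoter motifs were not searched. The alternatives were other background corrections, normalizations, filters, sets of arrays and estimates of the spread, the series table, *rpb1-CTD11 cdk8Δ* against wild type 330 rpm with *rpb1-CTD11* against wild type, no dye term and each array left out in turn.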

Additional observations from a re-analysis of the deposited data

Results flagged for a closer look

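The response to loss of *CDK8* differed between 11 and 12 repeats, by the limma test of the difference itself, at 20 probes, of which 16 have a gene name. The values here are the log2 difference of *rpb1-CTD11 cdk8Δ* minus *rpb1-CTD11* less that of *rpb1-CTD12 cdk8Δ* minus *rpb1-CTD12*.

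More positive at 11 repeats were *PHO84* (1.85), *FIT2* (1.54), *CWP1* (1.53), *FIT3* (1.29), *TCB2* (1.18), *PRM5* (0.87), a gene of cell wall stress, the zinc transporter *ZRT1* (0.81) and the peptide transporter *PTR2* (0.79). *PRM5* and *ZRT1* were not called at either length alone. *PTR2* rose by 1.7 at 11 repeats and 0.91 at 12.

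More negative at 11 repeats were *YHR138C* (-0.80), *MAG1* (-0.86), *ATR1* (-0.94), *QDR3* (-0.98), *SNZ1* (-0.98), *YHB1* (-1.14), *ASP3-3* (-2.12) and *MET17* (-5.55). *MAG1*, a DNA glycosylase whose gene lies beside *DDI1*, fell by 1.51 at 11 repeats and had -0.64 at 12. The value of *MET17* goes with its low level on the *rpb1-CTD12* arrays, and *PHO84* and *FIT2* also differ between the wild types. The part of strain background and culture in these differences was not tested.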

How the results depend on the processing

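The dye term of the fit, which is also the replicate block, was left out in 1 alternative. Without the replicate block 195 probes were higher, 140 lower and 9 differed between 11 and 12 repeats, against 204, 146 and 20 with it. Loess through the spiked-in controls gave 248 higher and 40 lower and 5 that differed, and turned the difference of *GCN4* to 0.10 and of *CAN1* to 0.0036. The fit of only the 4 groups with 11 or 12 repeats gave 182 higher, 143 lower and 5 that differed. By the adjusted p alone the counts were 1257, 1209 and 146. Leaving out each array in turn gave 181 (without the *rpb1-CTD11* b array) to 248 (without its a array) higher, 142 to 148 lower and 15 to 45 that differed, with 37 and 34 without the a and the b array of *rpb1-CTD11*. In the other alternatives the counts were within 1.5 times those given. Of 140 single genes recomputed, 47 were no longer past the adjusted p with the spiked-in controls, most of them genes that fell, 10 were not without the replicate block (*MAG1* among them) and 7 were not in the fit of only 4 groups (*HSP12*, *PGM2*, *TSL1*, *SAG1* and *PHO84* among them). *BIO2*, at -0.67, did not pass when *rpb1-CTD11 cdk8Δ* was set against wild type 330 rpm and *rpb1-CTD11* against wild type. The cause of these changes was not tested. The alternatives requiring the change past the fold in both pairs (168 and 111) and leaving out mitochondrial genome probes (196 and 146) were chosen after seeing the data.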

Other observations

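Biotin genes lay at a level of their own in several groups. The median log2 ratio over reference of 6 biotin synthesis and uptake genes was -0.55 and -0.57 on the *rpb1-CTD11 cdk8Δ* arrays and 0.17 and 0.09 on the *rpb1-CTD11* arrays, with -0.05 on both arrays of wild type 330 rpm and 0.50 to 0.83 on the wild type arrays. Of these genes 3 were called lower after loss of *CDK8*, with *BIO2*, biotin synthase, at -1.27 (adjusted p = 2.3e-06 in limma). When *rpb1-CTD11 cdk8Δ* was set against wild type 330 rpm and *rpb1-CTD11* against wild type, the median of the list was 0.07, where it was -0.65 before, and none of its genes was called. The part of culture conditions was not tested.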
